A study of Mus musculus with 74 samples.

Results

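Tumour necrosis factor (TNF) receptors are surface proteins that bind trimeric ligands of the TNF family. The 6 genes described here are Tnfrsf4, Tnfrsf18, Tnfrsf9, Fas, Tnfrsf1b and Tnfrsf19. They were chosen by name, with earlier results of these data known. Every probe with one of these platform gene symbols was taken, which gave 7 probes among 16463. Shares over all probes stand beside the member counts below and are not a test of the set. The whole array carried 13409 distinct symbols. Tnfrsf9 had 2 probes, designed to the transcripts NM_011612 (probe 1) and AK019885 (probe 2), and each of the other genes had 1.

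Each of the 74 mouse arrays compared the RNA of a test sample with that of a partner on the same slide, in 2 colours. Of the 11 groups, 7 used cultured DO11.10 hybridoma cells, a T cell line, each set against untreated cells of that line. In 2 groups, MSCV_A with 12 arrays and MSCV_B with 4, the cells carried the empty retrovirus MSCV. HDAC7-VP16 (10 arrays), MEF2D-VP16 (4) and Nur77 (4) were the other constructs studied without stimulation. A further 2 groups of 8 arrays were treated with PMA, a phorbol ester that activates protein kinase C, and ionomycin, a calcium ionophore, for 2.5 h, one with empty MSCV and one with the construct labelled HDAC7 DP. HDAC7, a class IIa histone deacetylase, represses targets of MEF2 transcription factors, VP16 is a viral activation domain, and Nur77 is the orphan nuclear receptor encoded by Nr4a1. The other 4 groups held 6 arrays each of total thymocytes. In 3 of them, thymocytes of DO11.10 mice, which carry a transgenic T cell receptor, were taken 3 h, 6 h or 12 h after antigenic peptide was injected and compared with thymocytes of uninjected DO11.10 mice. In the last, thymocytes of DO11.10 and mhc -/- mice shared each array. The constructs were delivered to cultured hybridoma cells by retrovirus and no promoter driving them is named. Whether a group was 1 transduction or several, whether thymi were pooled, the age and strain of the mice, the meaning of DP and the peptide's sequence and dose were not given in the sources used here.

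Values are deposited log ratios, taken as base 2 and as test RNA over partner RNA, after each array was centred on its median. A value of 1 is then 2 times as much RNA in the test sample. The direction was read from known genes: Nr4a1 averaged 4.50 on the Nur77 arrays and lay above 0 on 4 of 4, and Nr4a1 (4.30), Egr2 (3.97) and Il2 (3.35) lay above 0 on 8 of 8 stimulated MSCV arrays. Each group held both dye orientations in equal number. Log ratios of opposite orientation correlated below 0 over all probes in MSCV_A (median r -0.40), HDAC7-VP16 (-0.48) and MSCV_B (-0.24), and between 0.15 and 0.85 in the other groups. Replicates 3 and 9 of MSCV_A had no settled sign, and HDAC7-VP16 replicate 1 names the empty virus in its source and HDAC7-VP16 in its title. Differences were fitted with limma, with dye orientation as a term, and Benjamini-Hochberg adjustment ran over all 16463 probes. An adjusted p under 0.05 makes a probe called, and the words rose and fell are kept for such probes. Whether arrays hold separate cultures or animals is unstated in the labels; the p-values then reflect only how arrays of a group differ, and that may be technical. A ratio gives no level of a gene, so the presence of a cell type's markers cannot be read from these values. A tissue with fewer cells of one type and a tissue with less RNA per cell cannot be told apart.

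The receptors fall into 3 kinds by what is known of them. Tnfrsf4 (OX40), Tnfrsf18 (GITR) and Tnfrsf9 (CD137) are costimulatory receptors that appear on activated T cells, bind TRAF adaptor proteins and feed into NF-kB; Tnfrsf4 and Tnfrsf18 also mark regulatory T cells and their thymic precursors. Fas carries a death domain that recruits caspases, and Tnfrsf1b (TNFR2) binds TNF and lymphotoxin without a death domain. Tnfrsf19 (TROY) is better known from epithelial and neural progenitor cells than from T cells. During negative selection, a strong T cell receptor signal in a developing thymocyte leads to death or diversion, and peptide injection into T cell receptor transgenic mice is a standard model of it.

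The promoters of the members are shown for Tnfrsf9, whose probe 2 rose most in thymus and hybridoma, for Tnfrsf18, and for Fas, the member called in the fewest designed comparisons. They are the 250 bases upstream of a RefSeq transcript start in GRCm38.p6, written 5′ to 3′ on the gene's own strand. All 6 genes matched, with 8 promoters. Capitals mark matches to the NF-kB consensus and to the AP-1 site TGANTCA.
Tnfrsf9 promoter 1, chr4:150919905-150920154, plus strand: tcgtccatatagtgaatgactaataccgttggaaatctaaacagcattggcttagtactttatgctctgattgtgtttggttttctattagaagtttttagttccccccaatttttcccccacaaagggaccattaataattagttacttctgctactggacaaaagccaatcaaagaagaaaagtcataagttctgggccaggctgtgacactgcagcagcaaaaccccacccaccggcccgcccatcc
Tnfrsf9 promoter 2, chr4:150927749-150927998, plus strand: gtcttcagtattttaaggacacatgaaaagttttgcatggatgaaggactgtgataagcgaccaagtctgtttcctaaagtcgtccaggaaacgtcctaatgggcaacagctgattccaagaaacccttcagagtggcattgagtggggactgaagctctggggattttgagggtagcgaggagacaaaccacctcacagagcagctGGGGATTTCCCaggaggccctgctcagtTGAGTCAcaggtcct
Tnfrsf18 promoter, chr4:156026072-156026321, plus strand: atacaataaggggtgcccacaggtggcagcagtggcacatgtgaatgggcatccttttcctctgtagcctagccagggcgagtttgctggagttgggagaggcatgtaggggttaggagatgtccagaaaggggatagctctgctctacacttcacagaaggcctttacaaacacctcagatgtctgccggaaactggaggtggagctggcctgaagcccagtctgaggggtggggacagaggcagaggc
Fas promoter, chr19:34290409-34290658, plus strand: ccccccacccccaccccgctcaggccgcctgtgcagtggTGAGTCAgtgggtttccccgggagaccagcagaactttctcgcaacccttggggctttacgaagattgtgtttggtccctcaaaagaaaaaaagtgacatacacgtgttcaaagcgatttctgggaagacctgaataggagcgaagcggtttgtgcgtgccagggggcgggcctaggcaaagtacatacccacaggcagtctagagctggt
The second Tnfrsf9 promoter lies downstream of the first. It held overlapping NF-kB matches between 43 and 33 bases upstream of its start and an AP-1 match, TGAGTCA, between 15 and 9 bases upstream. No other member promoter had an NF-kB match, which was found in 7.25% of 32851 RefSeq promoters of this length, both strands searched. An AP-1 match was also found in Fas, 211 to 205 bases upstream, against 6.75% of all promoters. The MEF2 consensus was matched in Tnfrsf4 alone of the members, 107 to 98 bases upstream of its start, against 2.92% of all promoters; that window overlaps the end of the neighbouring gene Sdf4 and is not printed. The NFAT core GGAAA was found in each member but Tnfrsf1b, and in 55.6% of all promoters; 1 of its matches in the second Tnfrsf9 promoter lies within the NF-kB match. The Nur77 response element AAAGGTCA (1.34% of all promoters) and the EGR site GCGNGGGCG (4.7%) were found in no member promoter. A match of letters is not a binding site, and which start each Tnfrsf9 probe reports was not tested.

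**Figure D1:**
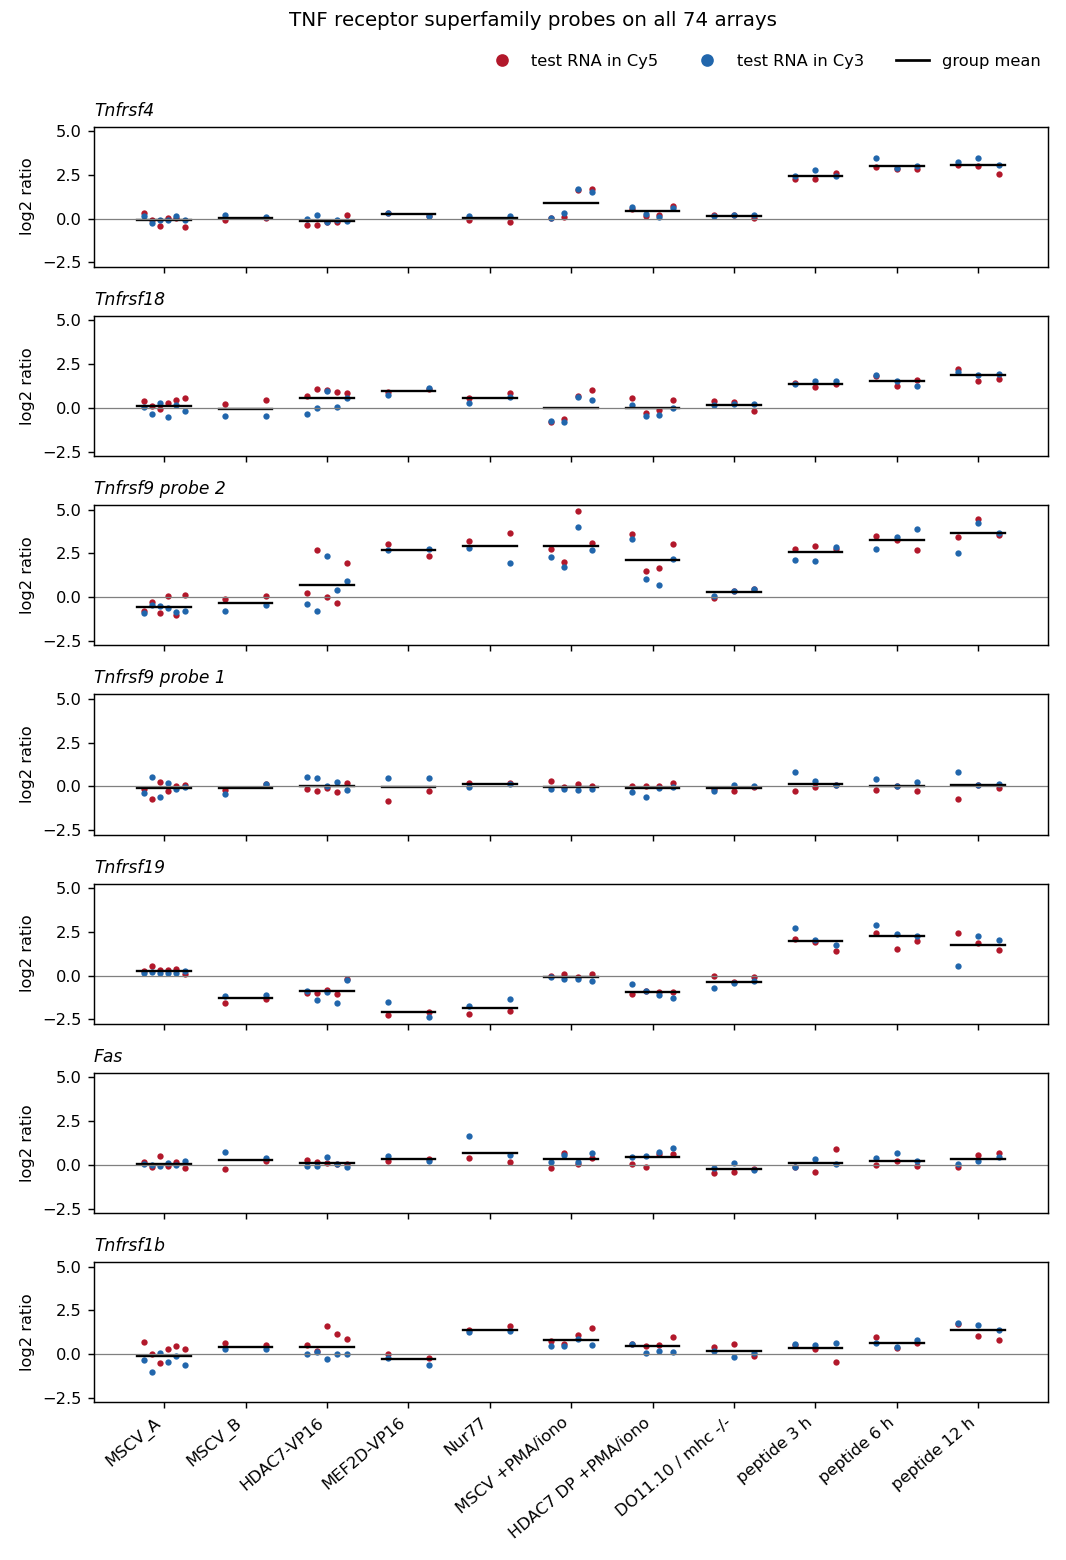
Log2 ratio (vertical axis) of each member probe on every array, by group (horizontal axis); red points have the test RNA in Cy5, blue points in Cy3, and black bars are group means. For the DO11.10 and mhc -/- arrays, red stands for mhc -/- RNA in Cy5 and blue for mhc -/- RNA in Cy3, and DO11.10 over mhc -/- is the likely direction. Tnfrsf4 stands high in the 3 peptide groups and on 4 of 8 stimulated MSCV arrays, while Tnfrsf9 probe 2 is also high with MEF2D-VP16 and Nur77 and probe 1 stays near 0.

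After injection of antigenic peptide the costimulatory receptor genes, Tnfrsf9 on probe 2 alone, and Tnfrsf19 rose in the thymus at every time. At 3 h, 4 of the 7 member probes were called higher and 0 lower, against 1.49% of all probes called higher and 1.21% lower. At 6 h and at 12 h the count was 5 higher and 0 lower, where 4.57% and 3.38% of all probes were called, 2.03% and 1.66% higher. The median of the 7 probes was 1.40, 1.55 and 1.77 at the 3 times, and that of all probes was -0.00367, 0.00517 and 0.0123. The 3 times were each set against uninjected thymocytes, and no group was given another injection. An effect of the antigen and an effect of the injection cannot be told apart here. The labels do not say whether 1 control RNA served them all. If it did, its own spread is not in the test.

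Tnfrsf4 ratios on the 6 arrays ran from 2.25 through a median of 2.46 to 2.76 at 3 h. At 6 h they ran from 2.83 through 2.91 to 3.48, and at 12 h from 2.58 through 3.08 to 3.45. Every array of the 3 groups stood above 2, and the lowest array at 6 h was above the highest at 3 h. The mean log2 change was 2.47 (SE 0.08, limma adjusted p = 2.885e-05), 3.00 (SE 0.08, adjusted p = 1.752e-06) and 3.08 (SE 0.09, adjusted p = 0.0002424), or 5.53-, 7.98- and 8.46-fold. By size of change it ranked 7th, 6th and 3rd from the top of 16463 probes. The F test over the 3 times was called for it (limma adjusted p = 0.01255), as for 4.09% of all probes; the call ended under quantile normalization (adjusted p = 0.6747) and on the slides titled 13-n alone (0.05463). The step from 3 to 6 h was 0.53 (SE 0.12) and was not called (adjusted p = 0.199), and only 0.0121% of all probes were called for that step. Groups that did not overlap, the lower ratio at 3 h, were seen in 0.395% of all probes. With slide series as a term, the step was 0.68 and called (adjusted p = 0.02924). From 6 to 12 h it was 0.08 (95% interval -0.17 to 0.34).

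Tnfrsf18, which lies next to Tnfrsf4 on chromosome 4, also rose at each time, by less than Tnfrsf4. Its ratios ran from 1.19 through 1.39 to 1.54 at 3 h, from 1.23 through 1.57 to 1.86 at 6 h and from 1.56 through 1.92 to 2.24 at 12 h. All 18 arrays were above 1, and the 6 h arrays overlapped those of both other times. The change was 1.40 (SE 0.06, adjusted p = 0.000115), 1.55 (SE 0.10, adjusted p = 0.0001662) and 1.89 (SE 0.10, adjusted p = 0.001451). The difference over the times was not called (F test, adjusted p = 0.06886), and it was called with slide series as a term (adjusted p = 0.001546) and on the slides titled 13-n alone (0.04292).

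Tnfrsf9 was the gene of the set with the largest change, on probe 2 alone. Probe 2 ran from 2.07 through 2.77 to 2.94 at 3 h, from 2.67 through 3.35 to 3.89 at 6 h and from 2.55 through 3.61 to 4.48 at 12 h. Every array stood above 2 and the groups overlapped one another. The change was 2.59 (SE 0.11, adjusted p = 0.0001073), 3.25 (SE 0.16, adjusted p = 3.464e-05) and 3.65 (SE 0.24, adjusted p = 0.003062), and at 12 h it was the highest of all 16463 probes. Probe 1 gave 0.17, 0.04 and 0.07 at the same times and was called in none of the comparisons reported here. Its arrays reached from -0.71 to 0.82, with 18 arrays on both sides of 0. Both probes carry the same gene identifier, so the probes disagree, and whether probe 1 responded to the transcript at all was not tested.

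Tnfrsf19 also went up with peptide, by 1.98 (SE 0.14, adjusted p = 0.001038), 2.25 (SE 0.13, adjusted p = 8.186e-05) and 1.77 (SE 0.25, adjusted p = 0.02076). Its arrays ran from 1.40 through 1.97 to 2.72, from 1.52 through 2.31 to 2.88 and from 0.56 through 1.94 to 2.46. All 18 were above 0, the lowest being replicate 2 at 12 h. At the 3 times taken singly, every array was above 0 for 5.06%, 5.4% and 6.07% of all probes. The 12 h call ended when any of replicates 3 to 6 was left out, with changes of 1.60 to 1.89 there, and no difference between the times was called (adjusted p = 0.6642).

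Of the receptors for TNF and for Fas ligand, Tnfrsf1b rose late. At 3 h its arrays ran from -0.46 through 0.54 to 0.63, with replicate 4 the one array below 0, and the mean of 0.35 was not called (adjusted p = 0.2119). At 6 h they ran from 0.34 through 0.63 to 0.97 and the gene was 0.63 higher (SE 0.09, adjusted p = 0.008887). At 12 h they ran from 0.82 through 1.53 to 1.80, a change of 1.41 (SE 0.13, adjusted p = 0.00711) that was 1.39 and not called without pep12h replicate 5 (adjusted p = 0.0613). The rise from 6 to 12 h was itself called, at 0.77 (SE 0.18, limma adjusted p = 0.03146), a step in which 3.18% of all probes were called, 1.02% higher and 2.16% lower; the groups overlapped. The call ended in 10 of 26 other fits, where the change stayed between 0.61 and 0.96, among them the fits without any of pep6h replicates 2 to 6 or pep12h replicates 3, 5 and 6. The F test over the times was called for it too (adjusted p = 0.00708), though not on the 13-n slides alone (0.06641). Fas ratios spread around 0, from -0.43 through -0.02 to 0.90 at 3 h, from -0.04 through 0.23 to 0.69 at 6 h and from -0.09 through 0.34 to 0.68 at 12 h. Its means of 0.11, 0.25 and 0.32 were not called, with a 95% interval of 0.04 to 0.61 at 12 h; without pep12h replicate 1 the 12 h value was 0.44 and called (adjusted p = 0.03004).

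**Figure D2:**
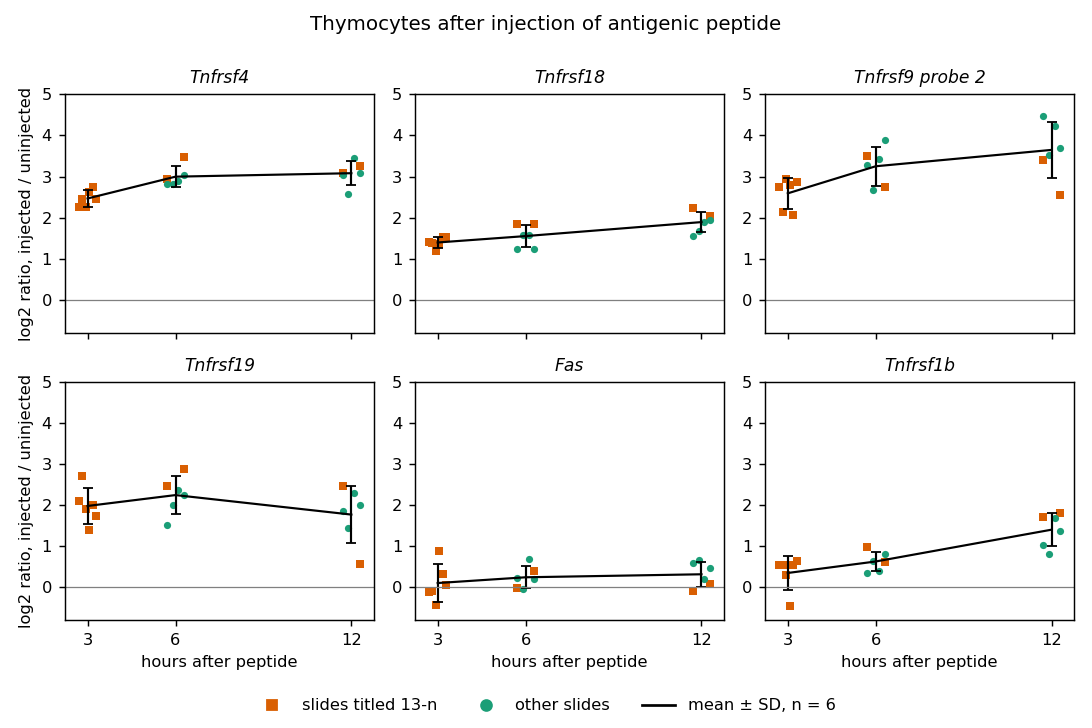
Log2 ratio of peptide-injected over uninjected thymocytes (vertical axis) against hours after injection (horizontal axis); squares are slides titled 13-n, circles are the other slides, and the line joins means with SD bars (n = 6). Tnfrsf4 goes from 2.47 at 3 h to 3.08 at 12 h, Tnfrsf1b from 0.35 to 1.41, and Fas averages 0.32 at most.

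Slide series and time are partly mixed in this course: all 3 h slides are titled 13-n, and 2 of 6 slides at 6 h and at 12 h. On the 13-n slides alone Tnfrsf1b averaged 0.35, 0.80 and 1.76, and Tnfrsf4 averaged 2.47, 3.21 and 3.17. Tnfrsf9 probe 2 averaged 2.59, 3.12 and 2.98 on those slides, and 3.32 at 6 h and 3.98 at 12 h on the others. At 12 h its 13-n slides reached from 2.55 to 3.41 and the other slides from 3.53 to 4.48. No difference between the times was called for it (F test, adjusted p = 0.08). Fas at 12 h averaged -0.0055 on the 13-n slides and 0.48 on the others, called on the latter alone (adjusted p = 0.007261). On the other slides Tnfrsf1b averaged 0.55 at 6 h and 1.23 at 12 h, and that difference was called (0.68, adjusted p = 0.007857). Genes of other thymic cells moved in the same arrays. Of 8 thymic epithelium markers, 3 fell at 3 h, 4 at 6 h and 2 at 12 h, led by Ccl25 (-1.55, -1.41 and -1.34) and Psmb11 (-1.16, -1.73 and -1.97), and 0 rose. Of 2 erythroid markers 1 fell at 3 h and at 6 h. At 6 h, 3 of 5 macrophage, 1 of 3 dendritic cell, 2 of 5 stroma and 1 of 5 B cell markers fell. No macrophage, dendritic, stroma or B cell marker was called at 3 or 12 h, and none of 8 thymocyte markers at any time (medians -0.19, -0.22 and -0.33). Of 16 genes known to be induced by T cell receptor signals, 10, 10 and 8 rose at the 3 times and 0 fell (medians 1.39, 0.95 and 0.78). Among 8 markers of regulatory or agonist-selected T cells, Il2rb rose at 6 h (1.04) and 12 h (1.44) and Nrp1 fell (-0.47 and -0.53). Foxp3 was not called, at 0.02, -0.07 and 0.18. The part of these cell types in the receptor changes was not tested.

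In hybridoma cells PMA and ionomycin raised Tnfrsf9 far above the empty virus on probe 2, while probe 1 gave 0.08 and was not called. Tnfrsf4 and Tnfrsf1b rose less, by calls that did not hold once each pair of slides was averaged. Of the 7 probes 3 were called higher and 1 lower in stimulated MSCV over MSCV_A, where 12.5% of all probes were called, 6.07% higher and 6.43% lower. Tnfrsf9 probe 2 ran from -1.02 through -0.69 to 0.10 on the 12 MSCV_A arrays and from 1.71 through 2.73 to 4.90 on the 8 stimulated arrays. The groups did not overlap, as 1.1% of all probes did not in that direction. The change was 3.52 (SE 0.31, limma adjusted p = 1.39e-07), 11.4-fold and 7th from the top of all probes, and it was called in each of the 24 other fits. Tnfrsf1b ran from -0.996 through -0.04 to 0.69 in MSCV_A and from 0.44 through 0.69 to 1.50 with stimulation. It rose by 0.89 (SE 0.16, adjusted p = 0.0005795), and by 0.68 and uncalled (adjusted p = 0.05526) without slides 15 and 16. The call also ended in series 14 alone (0.75, adjusted p = 0.1073) and with slide pairs averaged (adjusted p = 0.05408).

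The stimulated MSCV arrays differed by slide number over all probes, and Tnfrsf4 and Tnfrsf18 split by it. Stimulated Tnfrsf4 stood at 0.03, 0.10, 0.06 and 0.34 on slides 13 and 14, and at 1.67, 1.70, 1.72 and 1.51 on slides 15 and 16. MSCV_A arrays ran from -0.45 through -0.07 to 0.34, so slides 13 and 14 lay within that range and slides 15 and 16 above it. The mean change was 0.96 (SE 0.24, adjusted p = 0.01023), taking the 8 arrays as separate. These are 4 slide numbers hybridised in both series, and with slides of the same number averaged the 0.96 was not called (SE 0.33, adjusted p = 0.1174), nor with slide pairs averaged (0.2069), nor in series 14 (0.84, 0.2932) or series 15 (1.07, 0.08582) alone. It was 0.20 (adjusted p = 0.5235) without slides 15 and 16 and 1.71 (adjusted p = 5.656e-08) without slides 13 and 14. Tnfrsf18 stood between -0.81 and -0.62 on slides 13 and 14 and between 0.48 and 1.03 on slides 15 and 16. Its mean change of -0.11 (adjusted p = 0.8597) covers a fall of 0.84 by 1 pair (adjusted p = 0.001434 without slides 15 and 16) and a rise of 0.61 by the other (adjusted p = 0.004601 without slides 13 and 14). The 2 series gave like values for these genes on a number. With each probe's group mean removed, stimulated MSCV arrays of the same number correlated over all probes at a median r of 0.41. Arrays of other numbers with the same dye correlated at -0.29. Tnfrsf9 probe 2 averaged 2.20 on slides 13 and 14 and 3.68 on slides 15 and 16. The labels do not say what separates the slide numbers, and the cause was not tested.

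Tnfrsf19 and Fas moved little with stimulation. Tnfrsf19 averaged -0.08 (SD 0.14, n = 8) against 0.26 (SD 0.13, n = 12) in MSCV_A, a fall of 0.34 (SE 0.06, adjusted p = 0.0004204) that becomes a difference of 0.046, uncalled, once MSCV_B is added to the control, 16 arrays in all. The call also ended in series 15 alone (-0.33, adjusted p = 0.1277), with slide pairs averaged (adjusted p = 0.08814), in the fit of all 11 groups (0.1803) and with the sign of MSCV_A replicates 3 and 9 turned (-0.25, 0.08174). Fas averaged 0.05 on the 4 stimulated slides of series 14 and 0.58 on the 4 of series 15. Its change of 0.24 (SE 0.11) was not called (adjusted p = 0.2108), and it was 0.57 and called in series 15 alone (adjusted p = 0.008396).

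**Figure D3:**
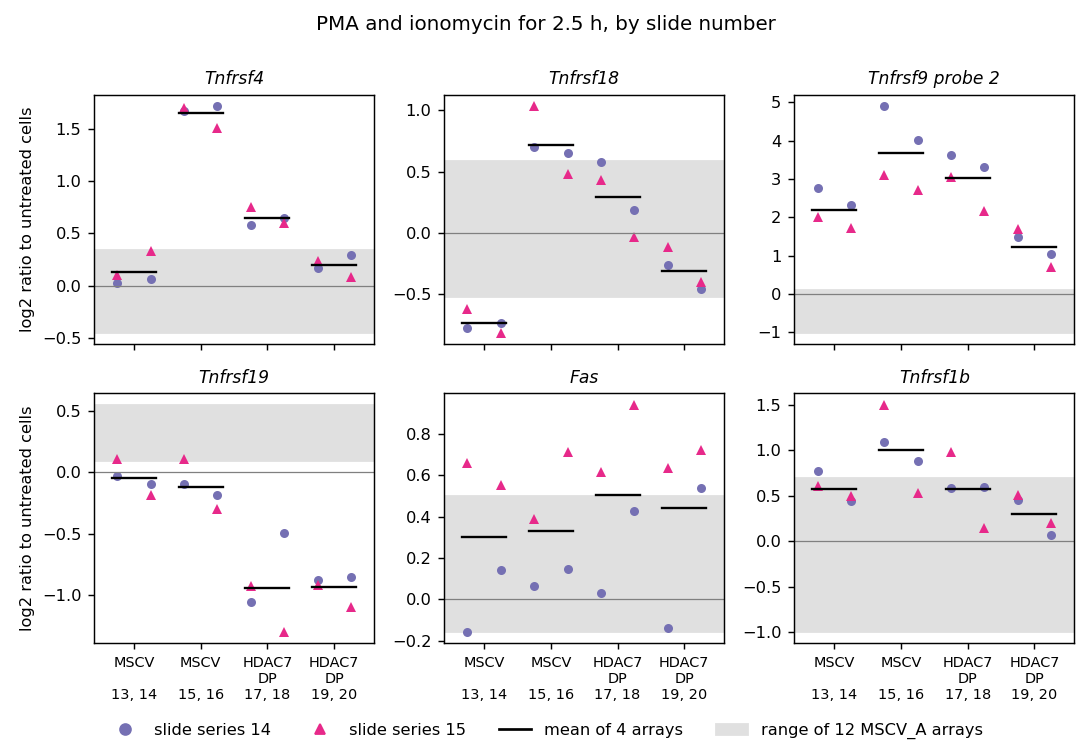
Log2 ratio to untreated hybridoma cells (vertical axis) on stimulated arrays, by construct and slide numbers (horizontal axis); circles are slide series 14, triangles series 15, bars are means of 4 arrays, and the grey band is the range of 12 MSCV_A arrays. For the empty virus, Tnfrsf4 averages 0.13 on slides 13 and 14 but 1.65 on slides 15 and 16. Tnfrsf19 lies lower on every HDAC7 DP array than on any stimulated MSCV array. The unstimulated MSCV_B arrays, not drawn, average -1.29 for Tnfrsf19.

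Tnfrsf19 fell with HDAC7 DP under stimulation, the 1 member probe called against stimulated MSCV. Of all probes 1.65% were called there, 1.12% lower and 0.522% higher. For Tnfrsf19 the 8 HDAC7 DP arrays ran from -1.30 through -0.92 to -0.49, and those of stimulated MSCV from -0.30 through -0.09 to 0.11. The groups did not overlap, as 0.413% of all probes did not in that direction. Unstimulated empty virus in MSCV_B averaged -1.29 (-1.58 to -1.08), lower than HDAC7 DP (-0.94). The 2 empty-virus sets differed by -1.54, a larger gap than that between the stimulated groups. The fall with HDAC7 DP was 0.86 (SE 0.10, limma adjusted p = 0.0001142). In series 14 alone it was 0.72 and not called (adjusted p = 0.05466), and with each pair of slides averaged it kept its size but not its call (adjusted p = 0.8872), in a fit where no probe of the array was called. Tnfrsf9 probe 2 ran from 0.71 through 1.92 to 3.62 with HDAC7 DP, and its difference of -0.81 (SE 0.48, 95% interval -1.83 to 0.22) was not called (adjusted p = 0.5764). Here too the slide numbers differed, with 3.04 on average on slides 17 and 18 and 1.23 on slides 19 and 20. Tnfrsf4 was 0.47 lower and Tnfrsf1b 0.35 lower, neither called (adjusted p = 0.5829 and 0.2426). Without slides 13 and 14 of the empty virus, Tnfrsf4 (-1.23, adjusted p = 0.0002677), Tnfrsf18 (-0.72, adjusted p = 0.01925) and Tnfrsf1b (-0.56, adjusted p = 0.02501) were called lower. Without slides 15 and 16, Tnfrsf4 was 0.29 higher and not called (adjusted p = 0.4638) and Tnfrsf18 0.73 higher and not called (0.08235). Against unstimulated MSCV_A, a comparison added after the data were seen that shares its control with stimulated MSCV, HDAC7 DP cells had more Tnfrsf9 on probe 2 (2.71, SE 0.31), Tnfrsf1b (0.54), Tnfrsf4 (0.49) and Fas (0.39, adjusted p = 0.02948). Tnfrsf19 was 1.19 lower there (SE 0.08, adjusted p = 3.554e-09), where 13.2% of all probes were called, 6.23% higher and 6.97% lower.

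Without stimulation Tnfrsf19 was called lower with HDAC7-VP16 than with MSCV_A, and no other member was called over all 22 arrays. The count was 0 higher and 1 lower of 7, where 2.72% of all probes were called, 1.42% higher and 1.29% lower. Tnfrsf19 ran from -1.55 through -0.96 to -0.19 on the 10 HDAC7-VP16 arrays and from 0.09 through 0.22 to 0.55 on the 12 MSCV_A arrays. The groups did not overlap, which held for 0.0486% of all probes in that direction. The change was -1.16 (SE 0.12, limma adjusted p = 5.463e-06). Once MSCV_B was added to the control it was -0.77 and not called (adjusted p = 0.1257), and series 14 by itself gave -0.83, not called (0.3132). MSCV_B, an empty virus too, averaged -1.29, lower than HDAC7-VP16 (-0.90). The 2 empty-virus sets differed by -1.54, a larger gap than the -1.16 between HDAC7-VP16 and MSCV_A. Tnfrsf9 probe 2 stood at 2.72, 2.35, 1.97 and 0.93 on the 4 slides of series 14. On the 6 slides of series 15 it stood between -0.80 and 0.39. Over both series the change was 1.28 (SE 0.35) and missed the threshold (adjusted p = 0.05178); series 14 gave 2.81 (adjusted p = 0.01731) and series 15 gave 0.18 (adjusted p = 0.7005). With series as a term it was 1.35 and called (adjusted p = 0.02601). Tnfrsf18 was 0.48 higher (SE 0.14, adjusted p = 0.06313) and Tnfrsf1b 0.52 higher (SE 0.16, adjusted p = 0.1003), neither called; Tnfrsf4 (-0.04) and Fas (0.01) were near 0. Without HDAC7-VP16 replicate 1, the array with disagreeing labels, Tnfrsf18 (0.56, adjusted p = 0.01493) and Tnfrsf9 probe 2 (1.40, adjusted p = 0.0415) were called higher. Tnfrsf18 was also called with series as a term (0.51, adjusted p = 0.01777), and Tnfrsf1b in series 15 alone (0.81, adjusted p = 0.01341) and with same-numbered slides averaged (0.55, adjusted p = 0.03824).

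Against the same 4 MSCV_B arrays, MEF2D-VP16 and Nur77 both raised Tnfrsf9 on probe 2 and Tnfrsf18, and they moved Tnfrsf1b in opposite directions. The fall of Tnfrsf1b with MEF2D-VP16 and the rise of Tnfrsf18 with Nur77 lost their calls in some other fits, as given below. Tnfrsf9 probe 1 was not called with either construct (0.06 and 0.21). The first 2 MEF2D-VP16 arrays, slides 21 and 22, held 299 and 393 deposited values of exactly 0. Any other array held 69 at most, and no member value was among the zeros. With MEF2D-VP16, 2 of 7 probes were called higher and 2 lower, where 12.6% of all probes were called, 6.4% higher and 6.16% lower. With Nur77 it was 3 higher and 1 lower, where 6.91% of all probes were called, 3.62% higher and 3.29% lower. Tnfrsf9 probe 2 stood at -0.11, 0.10, -0.79 and -0.45 in MSCV_B. It stood at 3.03, 2.70, 2.37 and 2.77 with MEF2D-VP16 and at 3.21, 3.66, 2.79 and 1.97 with Nur77. All 8 construct arrays lay above all 4 control arrays. Of all probes, 8.15% did so with MEF2D-VP16 and 4.13% with Nur77. The change was 3.03 (SE 0.19, limma adjusted p = 2.561e-05) and 3.22 (SE 0.20, adjusted p = 5.05e-06), 13th and 12th from the top of all probes, and both were called in every other fit.

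Tnfrsf18 stood at 0.20, 0.47, -0.45 and -0.43 in MSCV_B, the first 2 with the test RNA in Cy5. With MEF2D-VP16 it rose by 1.03 (SE 0.17, adjusted p = 0.004454). Like 8.15% of all probes, it then stood clear above the controls, at 0.93, 0.76, 1.07 and 1.15. With Nur77 it stood at 0.58, 0.85, 0.31 and 0.61, overlapping them, a rise of 0.64 (SE 0.15, adjusted p = 0.02503) whose call ended in 8 of 15 other fits, those without MSCV_B replicate 1, 3 or 4 or Nur77 replicate 2 or 3 among them. Tnfrsf4 did not follow its neighbour: it was 0.17 higher with MEF2D-VP16 (95% interval -0.09 to 0.43) and 0.05 lower with Nur77 (-0.28 to 0.19).

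Tnfrsf1b stood at 0.63, 0.50, 0.32 and 0.28 in MSCV_B. It stood at 0.01, -0.24, -0.24 and -0.60 with MEF2D-VP16 and at 1.40, 1.61, 1.27 and 1.35 with Nur77. The 3 groups did not overlap. Of all probes, 7.79% lay below MSCV_B without overlap with MEF2D-VP16, and 4.13% above it with Nur77. Between the constructs, 7.57% were lower with MEF2D-VP16 without overlap. Tnfrsf1b fell by 0.70 with MEF2D-VP16 (SE 0.13, adjusted p = 0.005961) and rose by 0.98 with Nur77 (SE 0.11, adjusted p = 0.0002867). Set directly against each other, the constructs differed by -1.68 (SE 0.13, limma adjusted p = 8.729e-05), a comparison added after the data were seen in which 13% of all probes were called, 6.73% higher and 6.23% lower. The fall depended on the control: against untreated cells it was 0.27 and not called (adjusted p = 0.1118), and with MSCV_A added to the control 0.31 (adjusted p = 0.4879). Fas was not called with either construct (0.06 and 0.43).

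**Figure D4:**
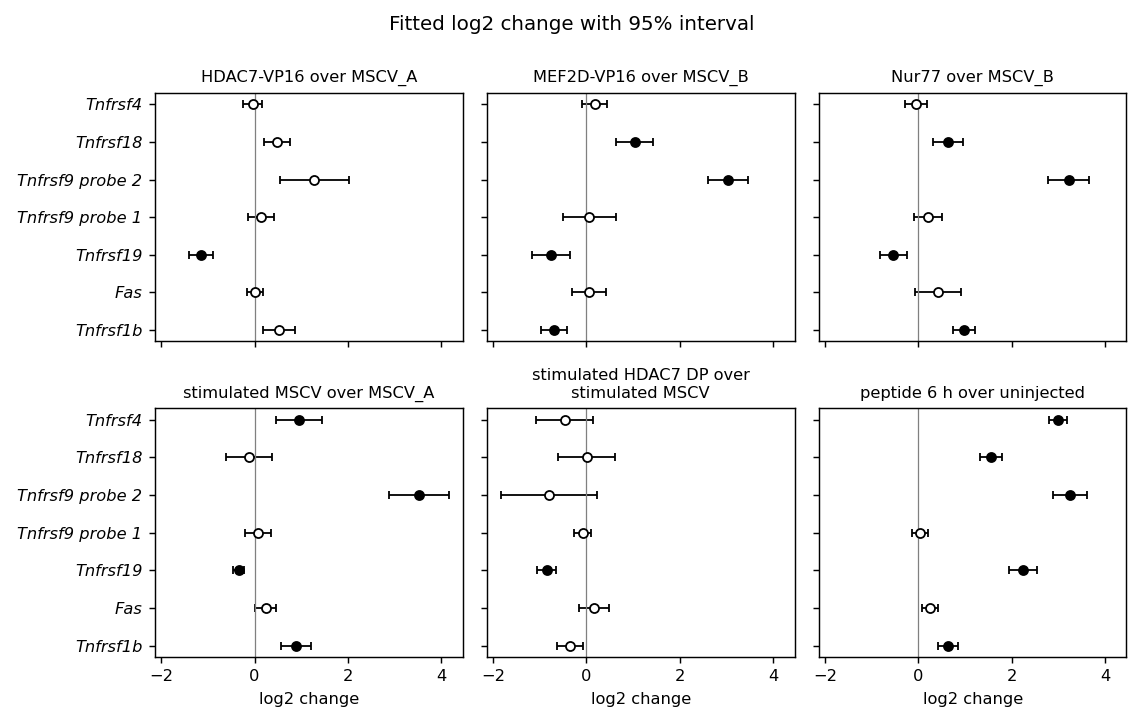
Fitted log2 change of each member probe (horizontal axis) with its 95% interval in 6 comparisons; filled points were called at an adjusted p under 0.05 over all probes and open points were not. Tnfrsf1b is at -0.70 with MEF2D-VP16 and 0.98 with Nur77, and Tnfrsf19 is at -1.16 with HDAC7-VP16 and 2.25 at 6 h after peptide.

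Tnfrsf19 also differed between the 2 empty-virus sets. Against untreated cells it stood at -1.58, -1.34, -1.14 and -1.08 in MSCV_B, a fall of 1.29 (SE 0.08, adjusted p = 0.0002922). As deposited, all 12 MSCV_A arrays lay above 0 (mean 0.26, adjusted p = 0.006224), as 0.328% of all probes did. That call ended with the unsettled sign of MSCV_A replicates 3 and 9 turned. The 2 empty-virus sets differed by -1.54 (SE 0.10, limma adjusted p = 1.407e-07) without overlap, as 0.929% of all probes did not in that direction, and 2.53% of all probes were called between them, 1.16% higher and 1.37% lower in MSCV_B. Set of slides and group cannot be told apart here. MEF2D-VP16 arrays stood at -2.26, -1.52, -2.05 and -2.38 and Nur77 arrays at -2.19, -2.03, -1.74 and -1.33. Over MSCV_B, Tnfrsf19 fell by 0.77 (SE 0.18, adjusted p = 0.02202) and by 0.54 (SE 0.13, adjusted p = 0.03134). The first call ended without MEF2D-VP16 replicate 1 (-0.74) or MSCV_B replicate 2, 3 or 4 (-0.73 to -0.77), and the Nur77 call ended without any 1 array but Nur77 replicate 4 (-0.46 to -0.57).

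The other members differed less between the empty-virus sets. In MSCV_A 1 of 7 probes was called higher and 1 lower than untreated cells, where 1.97% of all probes were called, 0.626% higher and 1.35% lower: beside Tnfrsf19, Tnfrsf9 probe 2 was 0.58 lower (SE 0.10, adjusted p = 0.01039). With the sign of MSCV_A replicates 3 and 9 turned, no probe of the array was called in that comparison. In MSCV_B, Tnfrsf1b was 0.43 higher (SE 0.07, adjusted p = 0.01953), a call lost when any of the 4 arrays was left out, where 5.72% of all probes were called, 2.71% higher and 3.01% lower. Between the sets no member but Tnfrsf19 was called, with Tnfrsf1b next in size (0.53, adjusted p = 0.2173).

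In thymocytes of DO11.10 and mhc -/- mice the members differed little. The likely direction is DO11.10 over mhc -/-, since Cd5 (3.77), Cd69 (2.13), Ccr7 (2.12), Itgb7 (2.15), Cd6 (1.96) and Klf2 (1.74), genes that go up at positive selection, lay above 0 on 6 of 6 arrays; S1pr1 (-0.89) and Il7r (-0.06) did not. In that direction Tnfrsf4 was 0.18 higher (SE 0.04, limma adjusted p = 0.01498) and Tnfrsf9 probe 2 0.27 higher (SE 0.08, adjusted p = 0.04088). Tnfrsf19 was 0.33 lower (SE 0.07, adjusted p = 0.007855) and Fas 0.24 lower (SE 0.07, adjusted p = 0.02632). Tnfrsf18 (0.19) and Tnfrsf1b (0.17) were not called. These are 2 of 7 probes higher and 2 lower, where 36.3% of all probes were called, 20.5% higher and 15.8% lower. The largest of the 4 is 1.26-fold, and in a fit of all 11 groups together none of them was called. Tnfrsf4 ran from 0.07 through 0.20 to 0.23 over the 6 arrays and Tnfrsf19 from -0.72 through -0.35 to -0.03, both on 1 side of 0. That held for 35.5% of all probes, 19.5% above 0 and 16% below. Tnfrsf9 probe 2 (-0.06 to 0.44) and Fas (-0.46 to 0.14) crossed 0.

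Ordered by mean against untreated hybridoma cells, Tnfrsf9 probe 2 ran from stimulated MSCV (2.94, SD 1.06, n = 8), Nur77 (2.91, SD 0.72, n = 4) and MEF2D-VP16 (2.72, SD 0.27, n = 4) through stimulated HDAC7 DP (2.13, SD 1.09, n = 8) and HDAC7-VP16 (0.71, SD 1.24, n = 10) to MSCV_B (-0.31, SD 0.39, n = 4) and MSCV_A (-0.58, SD 0.37, n = 12). The 4 highest groups overlap. Tnfrsf1b was highest with Nur77 (1.41, SD 0.15), then stimulated MSCV (0.79, SD 0.36), stimulated HDAC7 DP (0.44, SD 0.30), MSCV_B (0.43, SD 0.16), HDAC7-VP16 (0.43, SD 0.61), MSCV_A (-0.09, SD 0.50) and MEF2D-VP16 (-0.27, SD 0.25). Only Nur77 over stimulated MSCV stands apart there by more than 1 SD of both among neighbours. Tnfrsf18 was highest with MEF2D-VP16 (0.98, SD 0.17), Nur77 (0.59, SD 0.22) and HDAC7-VP16 (0.58, SD 0.51), and between -0.05 and 0.10 in the other hybridoma groups. Fas lay between 0.08 (MSCV_A and HDAC7-VP16) and 0.71 (Nur77, SD 0.67), with Nur77 replicate 3 at 1.68 and the other 3 Nur77 arrays at 0.18 to 0.56. Tnfrsf4 was highest in stimulated MSCV (0.89, SD 0.82) and stimulated HDAC7 DP (0.42, SD 0.25), which overlap, and between -0.11 and 0.24 elsewhere. Tnfrsf19 was ordered from MSCV_A (0.26, SD 0.13) and stimulated MSCV (-0.08, SD 0.14) through HDAC7-VP16 (-0.90, SD 0.43), stimulated HDAC7 DP (-0.94, SD 0.23) and MSCV_B (-1.29, SD 0.23) to Nur77 (-1.82, SD 0.37) and MEF2D-VP16 (-2.06, SD 0.38).

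The patterns of the members over the 11 group means were not alike. Tnfrsf4 correlated with Tnfrsf19 at r = 0.88 and with its neighbour Tnfrsf18 at 0.84, and with Tnfrsf9 probe 2 at 0.66, Tnfrsf1b at 0.40 and Fas at 0.01. Tnfrsf9 probe 2 and Tnfrsf19 correlated at 0.32. The hybridoma points share untreated cells as partner and the peptide points share uninjected thymocytes, which may be the same RNA. The 3 peptide means carry much of the spread of the 11 points. Among 1295 probes of other named genes whose group means had an SD of at least 0.5, those most like Tnfrsf4 were Saa3 (r = 0.97), Lilrb4a (0.97) and Cxcl2 (0.97). Those most like Tnfrsf18 were Ccl2 (0.92), Lilrb4a and Saa3 (both 0.89). For Tnfrsf19 they were Il4i1 (0.93), Gzmb (0.92) and Ccl22 (0.91), and for Tnfrsf9 probe 2 Stx11 (0.90), Birc3 (0.72) and Bhlhe40 (0.71). Saa3 stood at 1.14, 1.75 and 1.99 at the 3 peptide times and at 0.04 on stimulated MSCV arrays. For Tnfrsf1b they were Pmepa1 (0.89), Mx1 (0.79) and Cyth3 (0.78), and for Fas Il10rb (0.91), Gsto1 (0.90) and Hipk2 (0.90). Cyth3 stood at 2.79 and Mx1 at 1.71 on Nur77 arrays. For Tnfrsf9 probe 1, whose own group means had an SD of 0.09, the highest was Rcn1 (0.67).

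Genes beside the members moved with them in some comparisons and not in others. Tnfrsf4 lies between Sdf4 and Tnfrsf18 on chromosome 4; Sdf4 was 0.29 higher at 6 h after peptide (adjusted p = 0.03933) and was not called elsewhere. Tnfrsf8, a relative of Tnfrsf1b and its neighbour on chromosome 4, fell by 2.00 with MEF2D-VP16 (SE 0.33, limma adjusted p = 0.004216) and by 1.77 with Nur77 (SE 0.19, adjusted p = 0.0002449), so that it went with Tnfrsf1b under MEF2D-VP16 and against it under Nur77. It was also higher in MSCV_B than in untreated cells (0.44, adjusted p = 0.02031), as Tnfrsf1b was, and higher than in MSCV_A (0.60, adjusted p = 0.02952). Dhrs3, on the other side of Tnfrsf1b, rose with Nur77 (0.90, adjusted p = 0.00932) as Tnfrsf1b did, and was not called with MEF2D-VP16. It was lower with MEF2D-VP16 than with Nur77 (-0.82, adjusted p = 0.01469), again as Tnfrsf1b was, and between the DO11.10 and mhc -/- thymocytes it differed by -2.75 (adjusted p = 2.843e-07), where Tnfrsf1b was not called. Beside Fas, Acta2 fell by 0.40 with Nur77 (adjusted p = 0.04405) and Ch25h was called between the DO11.10 and mhc -/- thymocytes alone (0.82, adjusted p = 0.0002095), where Fas was lower. Per3, beside Tnfrsf9, was called there too (-0.39, adjusted p = 0.005777).

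The rest of the pathway was read from lists by role. Of 5 measured ligands of the members, 4 rose with PMA and ionomycin and 0 fell (median 2.90, all probes -0.01), with Tnf (3.15, SE 0.22), Fasl (3.01, SE 0.19) and Tnfsf4, the ligand of Tnfrsf4 (2.90, SE 0.44), at the top. Under stimulation 2 of the 5 were called lower with HDAC7 DP than with the empty virus. They were Lta (-1.59, SE 0.28, limma adjusted p = 0.005359) and Tnf (-0.81, SE 0.18, adjusted p = 0.02853). Of all probes 1.12% were called lower there, and no probe of the array was called once slide pairs were averaged. After peptide Tnf and Lta rose at 3 h (1.66 and 0.83) and 6 h (1.24 and 0.72), and 0 of 5 were called at 12 h. Tnfsf4 fell by 2.77 with MEF2D-VP16 (SE 0.22, adjusted p = 9.242e-05). At 12 h Tnf stood at 0.68 (adjusted p = 0.0555) and its receptor gene Tnfrsf1b at 1.41.

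Of 19 other receptors of the superfamily measured, 1 rose at 3 h, 2 at 6 h and 0 at 12 h after peptide, and 0 fell, where 1.49%, 2.03% and 1.66% of all probes rose. Cd40 (0.96 and 1.05) and, at 6 h, Cd27 (0.40) were those that rose. With stimulation Tnfrsf12a (2.19, SE 0.23) and Tnfrsf10b (0.36) rose. Nur77 raised Cd27 (0.91) and lowered Tnfrsf8 and Tnfrsf21 (-0.85). The median of the 19 was between -0.05 and 0.13 in these comparisons.

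Among 12 adaptors and death-domain partners, Traf1 and Birc3, which sit on the tails of the costimulatory receptors and are known NF-kB targets, rose at each peptide time. Traf1 was at 0.80, 0.78 and 1.07 and Birc3 at 1.11, 0.81 and 1.06. In all 2, 3 and 3 of the 12 rose and 0, 1 and 1 fell. With stimulation 4 rose and 1 fell, Traf1 by 3.04 (SE 0.26, limma adjusted p = 1.181e-07). Of 11 NF-kB subunits and feedback genes, 8 rose with stimulation and 0 fell (median 1.23), and 4, 4 and 2 rose at 3, 6 and 12 h. Nfkb2 was 1.51 and 1.65 higher at 3 h and 6 h, Rel 1.47, 0.99 and 0.70 higher and Nfkbia 0.85, 0.77 and 0.70 higher at the 3 times. With Nur77, where 6.91% of all probes were called, 0 of the 11 NF-kB genes and 0 of the 12 adaptors were called (medians -0.12 and -0.06); at that share a count of 0 in lists of this size says little. MEF2D-VP16, where 12.6% of all probes were called, called Nfkbia (0.74, adjusted p = 0.004589) and the caspase regulator Cflar (0.77) higher and Traf4 lower (-0.60).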

How the data were processed

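The members and the gene lists were chosen with earlier results of these data known. Per the labels' protocols, total RNA was made into cDNA with aminoallyl-dUTP and coupled to Cy dyes. The authors deposited 1 log ratio per probe and array, taken here as log2; its base, direction, background correction and normalization were not given in the sources used here. Intensities were not used here, so the number of arrays limits the precision. Dye orientation came from array titles, since both channels carry Cy3 in the label fields. The platform annotation gave 1 symbol to 14551 probes, several to 6 and none to 1906.

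Each array was centred on its median and limma 3.58.1 (lmFit and eBayes, statmod 1.5.0, R 4.3.3) was fitted to the groups compared, with a dye term. Peptide, MHC and empty-virus ratios were tested against 0, and the other constructs against the empty virus. Scripts were tested on simulated data. Genes named are all member probes, up to 3 called genes per list and comparison, the 3 probes most like each member and the neighbouring genes; values of Foxp3, and list genes repeated in comparisons where they were not called or not among the largest, were added after values were seen. Alternatives covered dye term, quantile normalization, the groups in the fit, slide series and numbers, the control, and single arrays left out.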

Additional observations from a re-analysis of the deposited data

Results flagged for a closer look

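With Tnfrsf4, pep6h replicate 2 stood apart as the highest of its 6 arrays, at 3.48 with the next at 3.03. With Tnfrsf1b, pep3h replicate 4 stood apart as the lowest of its 6, at -0.46 with the next at 0.30. Of 70 sets of a member probe in a group, 2 held such an array, where chance gives about 1 in 20.

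Differences between groups that were tested and called were these. Over the peptide times Tnfrsf4 (limma F test, adjusted p = 0.01255) and Tnfrsf1b (adjusted p = 0.00708) differed, and Tnfrsf1b was 0.77 higher at 12 h than at 6 h. Tnfrsf1b was 1.68 lower with MEF2D-VP16 than with Nur77 (log2 difference -1.68). Tnfrsf19 differed by -1.54 between the empty-virus sets MSCV_B and MSCV_A, which lie on different slides.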

How the results depend on the processing

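For 39 called values of members, 278 of 327 refits under another setting and 249 of 292 with 1 array left out kept direction and call; 48 and 43 lost the call, and 1 reversed. For 59 values not called, 25 of 541 refits under another setting and 10 of 632 with 1 array left out gained a call, and 5 reversed. The reversed values were Tnfrsf19 in stimulated MSCV at 0.046 with 16 control arrays; Tnfrsf18 without slides 13 and 14, at 0.61 in stimulated MSCV and -0.72 in HDAC7 DP; and, for HDAC7 DP set against untreated cells, a different quantity, Tnfrsf4 (0.42), Tnfrsf9 probe 2 (2.13) and Tnfrsf1b (0.44).

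Counts of member probes called that moved by over 1.5 times are these, with counts over all probes in brackets where those did too. MSCV_A went from 2 to 0 in the fit of all 11 groups, to 1 in series 14 (41 against 325), to 0 in series 15 (189) and to 0 with replicates 3 and 9 turned (0). MSCV_B went from 2 to 1 without the dye term (20 against 942) and in the fit of all groups (401). HDAC7-VP16 went from 1 to 3 in the fit of all groups and with series as a term, and to 2 under quantile normalization, with probes of 1 symbol, in series 15 (703 against 447), with same-numbered slides averaged, with replicates 3 and 9 turned, with 16 control arrays (238) and against untreated cells. Stimulated MSCV went from 4 to 2 in series 14 (781 against 2057) and against untreated cells, and to 1 with slide pairs averaged (535). HDAC7 DP went from 1 to 0 in series 14 and with slide pairs averaged (0 against 271), to 4 without slides 13 and 14 (1528) and to 5 against untreated cells (3234). Nur77 went from 4 to 2 without the dye term (365 against 1138), under quantile normalization and in the fit of all groups (640). The MHC arrays went from 4 to 0 in the fit of all groups. From 3 to 6 h the count went from 0 to 1 with series as a term (118 against 2). From 6 to 12 h it went from 1 to 0 under quantile normalization (239 against 523) and on the 13-n slides (99), and to 2 with series as a term (1246). Over the times it went from 2 to 1 under quantile normalization (410 against 674) and on the 13-n slides (241). Smaller moves of the member count were 4 to 3 or 5 for stimulated MSCV (5 without slides 13 and 14, with 3116 over all probes), 4 to 3 for MEF2D-VP16, 4 to 5 for Nur77 against untreated cells (2167 against 1138), 5 to 4 at 6 h on the 13-n slides (162 against 753), 5 to 4 at 12 h on the 13-n slides and to 6 on the other slides (4933 against 557), and 2 to 3 over the times with series as a term (1421).

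Counts over all probes also moved by over 1.5 times in these fits. In the fit of all groups they were 721 against 446 at 3 h, 2974 at 12 h, 35 from 3 to 6 h, 1012 from 6 to 12 h and 1241 over the times. Under quantile normalization they were 549 for MSCV_B, 862 at 12 h and 44 from 3 to 6 h, and without the dye term 284 for HDAC7-VP16 and 1 from 3 to 6 h. By slide series they were 7 for HDAC7-VP16 in series 14, 745 for stimulated MSCV and 27 for HDAC7 DP in series 15, 6 from 3 to 6 h on the 13-n slides, 1529 at 6 h and 2749 from 6 to 12 h on the other slides, and 1393 at 6 h and 2530 at 12 h with series as a term. HDAC7 DP had 101 with same-numbered slides averaged and 156, 169 and 144 without slides 15 and 16, 17 and 18, or 19 and 20; stimulated MSCV had 926 without slides 15 and 16, and MEF2D-VP16 had 881 without slides 21 and 22. The cause was not tested.

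With 1 array left out, the count ran from 1 to 5 for the MHC arrays, 1 to 3 for HDAC7-VP16, 3 to 4 for MEF2D-VP16, 2 to 4 for Nur77, 3 to 6 at 12 h (46 to 1832 over all probes), 0 to 1 from 6 to 12 h and 2 to 3 over the times; it was 1 for MSCV_B and HDAC7 DP, 4 for stimulated MSCV and at 3 h, 5 at 6 h and 0 from 3 to 6 h. Single MSCV_A arrays were not left out, since refits were limited. No paired analysis was possible because replicate numbers follow accession order and no label says that arrays of different groups sharing a slide number belong together; the same-numbered slides within a group were averaged in another fit. Signal over background was not measured here.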

Other observations

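Ligands of the members also moved with the constructs. Tnfsf4 was 1.52 higher in MSCV_B than in untreated cells (SE 0.09, limma adjusted p = 0.0002092) and 1.61 higher in MSCV_B than in MSCV_A (SE 0.11, adjusted p = 1.407e-07), and it fell by 2.95 in MEF2D-VP16 against Nur77 (SE 0.29, adjusted p = 0.0002785). Its receptor gene Tnfrsf4 was not called in these comparisons. Tnf fell by 0.64 with Nur77 (SE 0.15, adjusted p = 0.02515), where Tnfrsf1b rose. Cd27, another costimulatory receptor of the superfamily, was 0.76 lower with HDAC7 DP than with the empty virus under stimulation (SE 0.10, adjusted p = 0.0005335) and 1.22 lower with MEF2D-VP16 than with Nur77 (SE 0.18, adjusted p = 0.002324). These genes were picked after their values were seen.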
